A study of Mus musculus with 48 samples.

Results

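Interferon-stimulated genes are the genes that cells switch on when interferons bind their receptors. A list of 35 such genes was taken by name, with earlier results of these data known, from the 21558 genes of a table of mouse hypothalamus RNA sequencing. All 35 had an RPKM (a read count scaled by transcript length and by the library's total) above 0 in at least 24 of the 48 columns, so all 35 were among the 16487 genes tested. Ifi44 was above 0 in 47 columns and each of the other members in all 48.

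Each library was a pool of hypothalamus from 3 male C57BL/6 mice (C57BL/6N in the design text). The late noise series were 3 months old in the labels and were kept at 85 dBA and 0.9 atm, 1 series under hind limb unloading, which keeps weight off the hind limbs as weightlessness does, and 1 series moving freely. The late quiet series were also 3 months old, again 1 unloaded and 1 free moving, and were kept at 10 dBA and normal pressure. The early series were 2 months old in the labels and all quiet, with a pair of unloaded series and a pair of free-moving series whose labels do not tell them apart, called a and b here. Each of the 8 series held 6 libraries with the numbers 1, 5, 9, 13, 17 and 21 in their titles, for which the labels give no unit. The same libraries had both noise and low pressure, and period and labelled age differ together, so neither pair can be told apart. The design text gives 2 months for all mice, which conflicts with the labels of the late series. With 1 series for each late condition, condition and series cannot be told apart either. The design text says that mice of 1 condition and 1 time were pooled. No label says how the pools of a series relate to each other, and each series held 1 pool per title number. The p-values reflect no more than the spread between pools left after terms for series and title number, which may be technical. That spread was estimated over all 8 series together.

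Type I interferons bind a receptor whose kinases, Jak1 and Tyk2, phosphorylate transcription factors of the Stat family. Stat2 and Irf9 are parts of a complex that binds a short element, built on repeats of GAAA, near the start of its target genes. The targets include sensors of viral RNA, further transcription factors, proteins that bind or degrade RNA, membrane proteins that hold back viruses, and the ubiquitin-like modifier Isg15. In the brain most cell types can respond, and microglia and endothelial cells express many of these genes at rest. Interferon gamma acts through another receptor and shares part of these targets, among them Irf1 and the genes of antigen presentation.

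Promoter windows from 250 bases before to 50 bases after the start of each gene were taken from the RefSeq table for GRCm38.p6, which held 28 of the 35 members. They were searched for the core of the element, GAAANNGAAA, on both strands (TTTCNNTTTC on the other strand), with overlapping matches counted. Of the 28 members 14 held a match and 7 of them held more than 1 in a window, while 3.44% of all 32851 windows and 3.99% of all 27025 genes in the table held one. The stretches below belong to members whose levels are described next, and to Ifit3, Ifit3b and Ifit1 for comparison. Each is written 5′ to 3′ on the strand of its gene, with the matched bases in capitals. Isg15 lies on the minus strand and its stretch is chr4:156200856-156200915. That of Bst2 (minus strand) is chr8:71537565-71537624, and that of Oas1a (minus strand) is chr5:120907526-120907585. Ifitm2 (minus strand) is shown at chr7:140955973-140956032, and Ifitm3 (minus strand) at chr7:141010714-141010743, just past its start. On the plus strand are Ifit3 at chr19:34583365-34583424, Ifit3b at chr19:34607761-34607820 and Ifit1 at chr19:34640770-34640829.
Isg15: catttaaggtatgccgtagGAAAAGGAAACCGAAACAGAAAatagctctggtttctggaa
Bst2: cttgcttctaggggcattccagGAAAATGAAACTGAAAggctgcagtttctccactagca
Oas1a: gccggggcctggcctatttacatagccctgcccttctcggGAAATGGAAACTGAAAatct
Ifitm2: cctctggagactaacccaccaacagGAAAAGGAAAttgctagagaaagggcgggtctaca
Ifitm3: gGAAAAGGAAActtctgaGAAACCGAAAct
Ifit3: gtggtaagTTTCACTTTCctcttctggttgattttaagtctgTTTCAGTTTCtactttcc
Ifit3b: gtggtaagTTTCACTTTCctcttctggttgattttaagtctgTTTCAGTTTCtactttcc
Ifit1: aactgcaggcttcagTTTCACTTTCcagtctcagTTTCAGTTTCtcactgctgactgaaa

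The stretches of Ifit3 and Ifit3b are identical letter for letter. A match describes these letters and does not show that a factor binds there.

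The members covered a wide range of levels per length. Over the 48 libraries Ifitm3, a membrane protein that blocks virus entry, averaged 44.6 ± 14.8 RPKM (SD), and Ifi27, a small hydrophobic protein, averaged 39.6 ± 7.91 RPKM. Ifitm2 followed at 28.2 ± 7.98 RPKM and Bst2, which tethers budding virus to the cell surface, at 12.1 ± 4.14 RPKM. At the low end Ifi44 averaged 0.226 ± 0.125 RPKM and Rsad2, an antiviral enzyme, 0.277 ± 0.108 RPKM. With the read totals recovered from the values, Rsad2 had at least 13 reads in each library. Neighbouring copies limit some values: 57.6% of the 50-base stretches of Oas1a also occur in other genes, mostly Oas1g, 51.2% of those of Ifit3 occur in Ifit3b, and 48.5% of those of Ifitm2 occur elsewhere, mostly in Gm45717. How the authors' counting shared such reads is not given in the sources used here, and these 4 genes, Ifit3b included, are uncertain for that reason.

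Facts of the whole series bear on every value that follows. The recovered totals were 28.3 M to 55.2 M reads per library. The 13 mitochondrially encoded genes held 8.95% to 62.4% of all RPKM, with medians of 38.9% and 29.2% in the late unloaded and late free-moving noise series, 13.8% and 11.9% in the late unloaded and late free-moving quiet series, and 15.5% to 45.5% in the early series. Because RPKM is relative to a library's total, the counts of calls are set beside the count after quantile normalization and the count with this share as a covariate where these moved them. In bulk tissue fewer cells of a type and less RNA per cell cannot be told apart.

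The late free-moving quiet series was the lowest of the 8 series for 17 of the 35 members and the highest for 7, and the late free-moving noise series was the highest for 12 and the lowest for 0. These ranks were not counted over all genes, so they cannot be read as particular to the members. Over all genes tested 53.9% were higher and 16.2% lower in the late free-moving quiet series than in the early free-moving ones. Ifitm3 stood at 59.9 ± 5.97 RPKM in early free-moving series b, the highest, and at 56.4 ± 16.8 and 52.0 ± 13.5 RPKM in the late unloaded and late free-moving noise series. It then stood at 46.4 ± 6.60 RPKM in early unloaded series b, 44.8 ± 10.7 in early free-moving series a, 42.3 ± 8.96 in early unloaded series a, 33.9 ± 4.07 in the late unloaded quiet series and 21.4 ± 2.13 in the late free-moving quiet series (SD, n = 6 each). Neighbours in this order lie within the larger of their SDs down to the late unloaded quiet series. The late free-moving quiet series lies further below its neighbour than either SD.

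**Figure D1:**
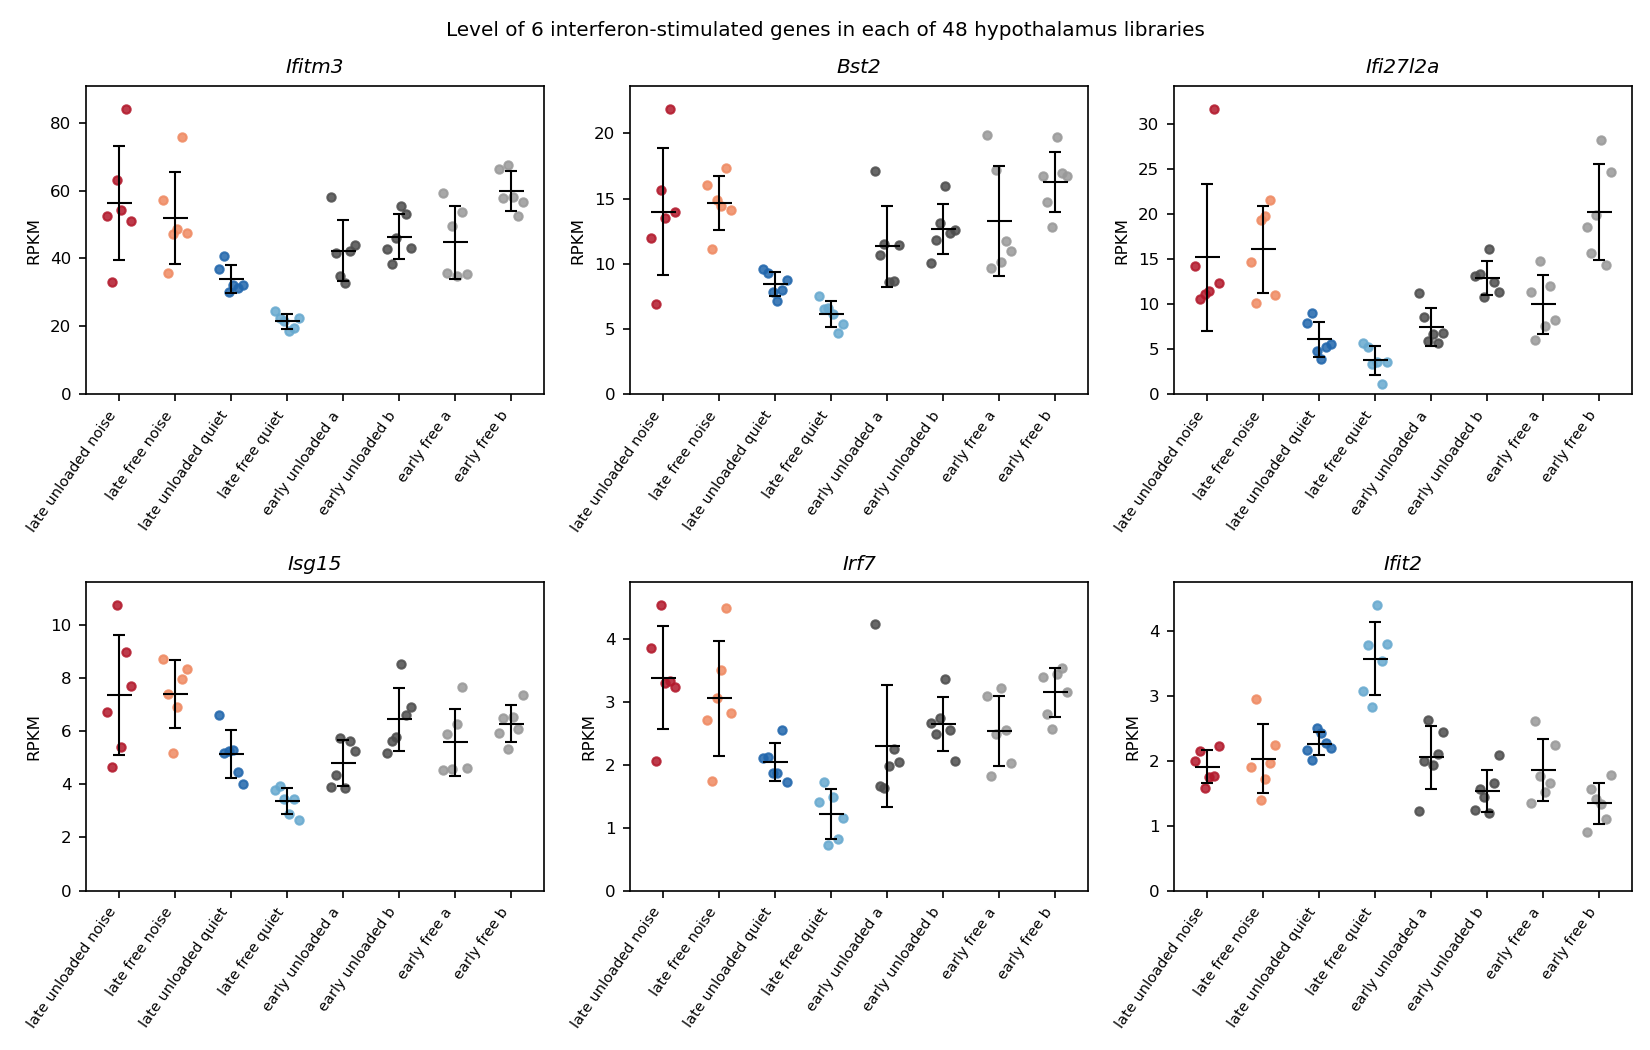
RPKM of Ifitm3, Bst2, Ifi27l2a, Isg15, Irf7 and Ifit2 in each of the 48 libraries (points), by series, with the mean (dash) and SD (bar) of 6 libraries. The late free-moving quiet series has the lowest mean for 5 of these genes and the highest, 3.57 RPKM, for Ifit2.

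To ask how noise with low pressure goes with these genes in free-moving mice, the late free-moving noise series was compared with the late free-moving quiet series. Of the 35 members 17 rose and 2 fell (limma, adjusted p below 0.05). Over all 16487 genes tested 18.5% were higher and 31.6% lower. The median log2 difference of the members was 0.35, against −0.09 over all genes. In 11 members every noise library lay above every quiet library, which was so for 10.8% of all genes, and in 0 members did every noise library lie below, against 2800 of the 16487 genes. After quantile normalization 20 members were higher and 1 lower (all genes 26.5% and 29.7%), and with the mitochondrial covariate 16 were higher and 1 lower (31.9% and 9.78%).

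The membrane proteins rose together, 4 of 4. Ifitm3 had 35.7 RPKM in its lowest noise library, a median of 48.1 and a highest of 75.8 RPKM, against 18.5, 21.9 and 24.4 RPKM in quiet. The groups did not overlap, and the difference was 1.23 ± 0.14 on the log2(RPKM + 0.5) scale (± is the standard error, adjusted p = 1.2e-08, higher in 6 of 6 title numbers). Bst2 had a lowest, median and highest of 11.1, 14.7 and 17.3 RPKM with noise and of 4.65, 6.35 and 7.53 RPKM in quiet. Its libraries did not overlap either, at 2.29-fold (adjusted p = 3.9e-07). Ifitm2, which like Ifitm1 and Ifitm3 lies on chromosome 7, averaged 31.5 ± 5.19 RPKM with noise and 16.0 ± 2.59 RPKM in quiet (log2 0.95 ± 0.14, adjusted p = 4.1e-07, no overlap). Ifitm1, which restricts entry at the cell surface, averaged 8.93 ± 2.42 and 4.93 ± 1.47 RPKM, a difference of 0.80 (adjusted p = 8.6e-05) with groups that overlapped.

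The member that differed most was Ifi27l2a, a short gene of the Ifi27 family (chromosome 12, 103442167 to 103443680, GRCm38). Its lowest, median and highest values were 10.1, 17.1 and 21.6 RPKM in the noise libraries, against 1.16, 3.56 and 5.65 RPKM in the quiet ones. No noise library came down to the quiet range, and the difference was 4.05-fold (log2 2.02 ± 0.26, adjusted p = 6.5e-08). Ifi27 itself averaged 46.2 ± 7.39 RPKM with noise and 27.1 ± 1.87 RPKM in quiet (log2 0.75 ± 0.09, adjusted p = 2.1e-08). Ifi35, a leucine zipper protein that binds Nmi, averaged 4.38 ± 0.985 and 1.77 ± 0.402 RPKM (log2 1.10 ± 0.16, adjusted p = 5.6e-07). Neither gene's groups overlapped. In the same role group of 9 other induced genes 5 rose, these 3 with Rtp4 and Xaf1, and 0 fell.

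All 4 transcription factors rose. Irf7, which drives the later wave of interferon production, had 1.74, 2.94 and 4.49 RPKM as its lowest, median and highest noise values, against 0.717, 1.28 and 1.73 RPKM in quiet. The highest quiet library stayed just under the lowest noise library, and the difference was 1.04 ± 0.16 (adjusted p = 1.4e-06). Irf9, the DNA-binding subunit of the Stat complex, averaged 7.73 ± 0.643 RPKM with noise and 4.77 ± 1.10 RPKM in quiet (log2 0.66 ± 0.12, adjusted p = 2.4e-05, no overlap). Irf1, a target shared with interferon gamma, differed by 0.71 ± 0.15 (adjusted p = 0.00012, no overlap) and Stat2 by 0.41 ± 0.11 (adjusted p = 0.0024, overlapping). Irf1, Stat2, Ifitm1, Oas1a and Eif2ak2 lie outside the rule for named genes in this comparison and were named after their values were seen, to complete their groups.

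Of the ISG15 system Isg15, the modifier itself, and Usp18, the protease that removes it, rose, and Trim25, a ubiquitin ligase, did not pass. Isg15 had 5.16, 7.66 and 8.72 RPKM as its lowest, median and highest noise values and 2.65, 3.45 and 3.93 RPKM as those in quiet. The groups did not overlap, at 2.04-fold (log2 1.03 ± 0.15, adjusted p = 1.1e-06). Of the 3 sensors Dhx58 rose (0.51), while Ddx58 (RIG-I) and Ifih1 (MDA5) did not pass, and of the ADP-ribosylation complex (Parp9, Dtx3l and Parp14) 0 of 3 passed.

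The RNA-binding and nucleotide effectors did not move together: 1 of 9 rose and 2 fell. Oas1a, which makes the activator of RNase L, averaged 1.17 ± 0.221 RPKM with noise and 0.527 ± 0.174 RPKM in quiet (log2 0.71 ± 0.13, adjusted p = 3.5e-05, no overlap). Ifit2, which binds viral RNA, went the other way, with 1.40, 1.94 and 2.95 RPKM as its lowest, median and highest noise values, against 2.83, 3.67 and 4.40 RPKM in quiet. The noise libraries lay lower apart from 1 that reached the quiet range, and the difference was −0.70 ± 0.12 (adjusted p = 1.0e-05). Eif2ak2, the kinase PKR, averaged 0.911 ± 0.238 and 1.21 ± 0.200 RPKM (log2 −0.29, adjusted p = 0.024). Its call was lost after quantile normalization, with the covariate and when some title numbers were left out (adjusted p up to 0.18). Usp18 and Rtp4 were likewise lost without some title numbers (adjusted p up to 0.079 and 0.17). Ifit1, Ifit3, Ifit3b, Oasl2, Rsad2 and Samhd1 did not pass.

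In unloaded mice the same question was put to the late unloaded noise and late unloaded quiet series, which share no library with the pair above. Of the 35 members 12 rose and 0 fell, where 5.71% of all genes were higher and 38.0% lower. The median log2 difference was 0.06 over the members and −0.22 over all genes. Of the 12 members 11 were also higher with noise in free-moving mice, which is 91.7% of these 12 and 64.7% of the 17, and Ifit3 was the exception. The same overlap over all genes is not given here, so these shares cannot be read as particular to the members. Both comparisons come from the same fit. The median mitochondrial share was higher with noise in both, at 38.9% against 13.8% in unloaded and 29.2% against 11.9% in free-moving mice. The part of this share in the overlap was not tested. In 4 members every noise library lay above every quiet library, as in 2.45% of all genes.

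All 4 membrane proteins rose here too. Ifitm1 led, with 8.29, 11.5 and 14.5 RPKM as its lowest, median and highest noise values and 4.49, 6.11 and 7.23 RPKM as those in quiet. The groups did not overlap (log2 0.87 ± 0.16, adjusted p = 0.0030). Ifitm3 averaged 56.4 ± 16.8 RPKM with noise and 33.9 ± 4.07 RPKM in quiet (log2 0.68 ± 0.14, adjusted p = 0.0030) with overlap, since its lowest noise library, at 33.0 RPKM, lay inside the quiet range of 30.2 to 40.7 RPKM. Ifi27l2a had 10.5, 11.9 and 31.7 RPKM as its lowest, median and highest noise values, against 3.92, 5.42 and 9.01 RPKM in quiet. It did not overlap (log2 1.19 ± 0.26, adjusted p = 0.0031), and its highest noise library, number 17, stood far from the other 5.

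Among the rest Ifitm2 (0.64), Ifi27 (0.37), Ifi35 (0.69), Bst2 (0.63), Irf7 (0.59), Oas1a (0.42) and Isg15 (0.45) rose by these log2 differences, with adjusted p between 0.0030 and 0.020. Ifitm2 and Ifi27 did not overlap, and the other 5 did. Irf9, at 6.11 ± 1.33 RPKM with noise and 6.14 ± 0.673 RPKM in quiet, did not pass. The noise libraries spread widely in this comparison: their mitochondrial share had a lowest value of 10.5% and a median of 38.9%, against 12.7% to 16.6% in quiet, and its part was not tested. Without title number 13 the count was 3 members and 105 of all genes. Without number 9 it was 7 members and 1862 genes, and without number 17 it was 7 members and 2858 genes, against 12 members and 7202 genes with all libraries. With the mitochondrial covariate it was 0 members and 0 of all 16487 genes. After quantile normalization 18 members were higher and 0 lower (all genes 16.2% and 19.2%).

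**Figure D2:**
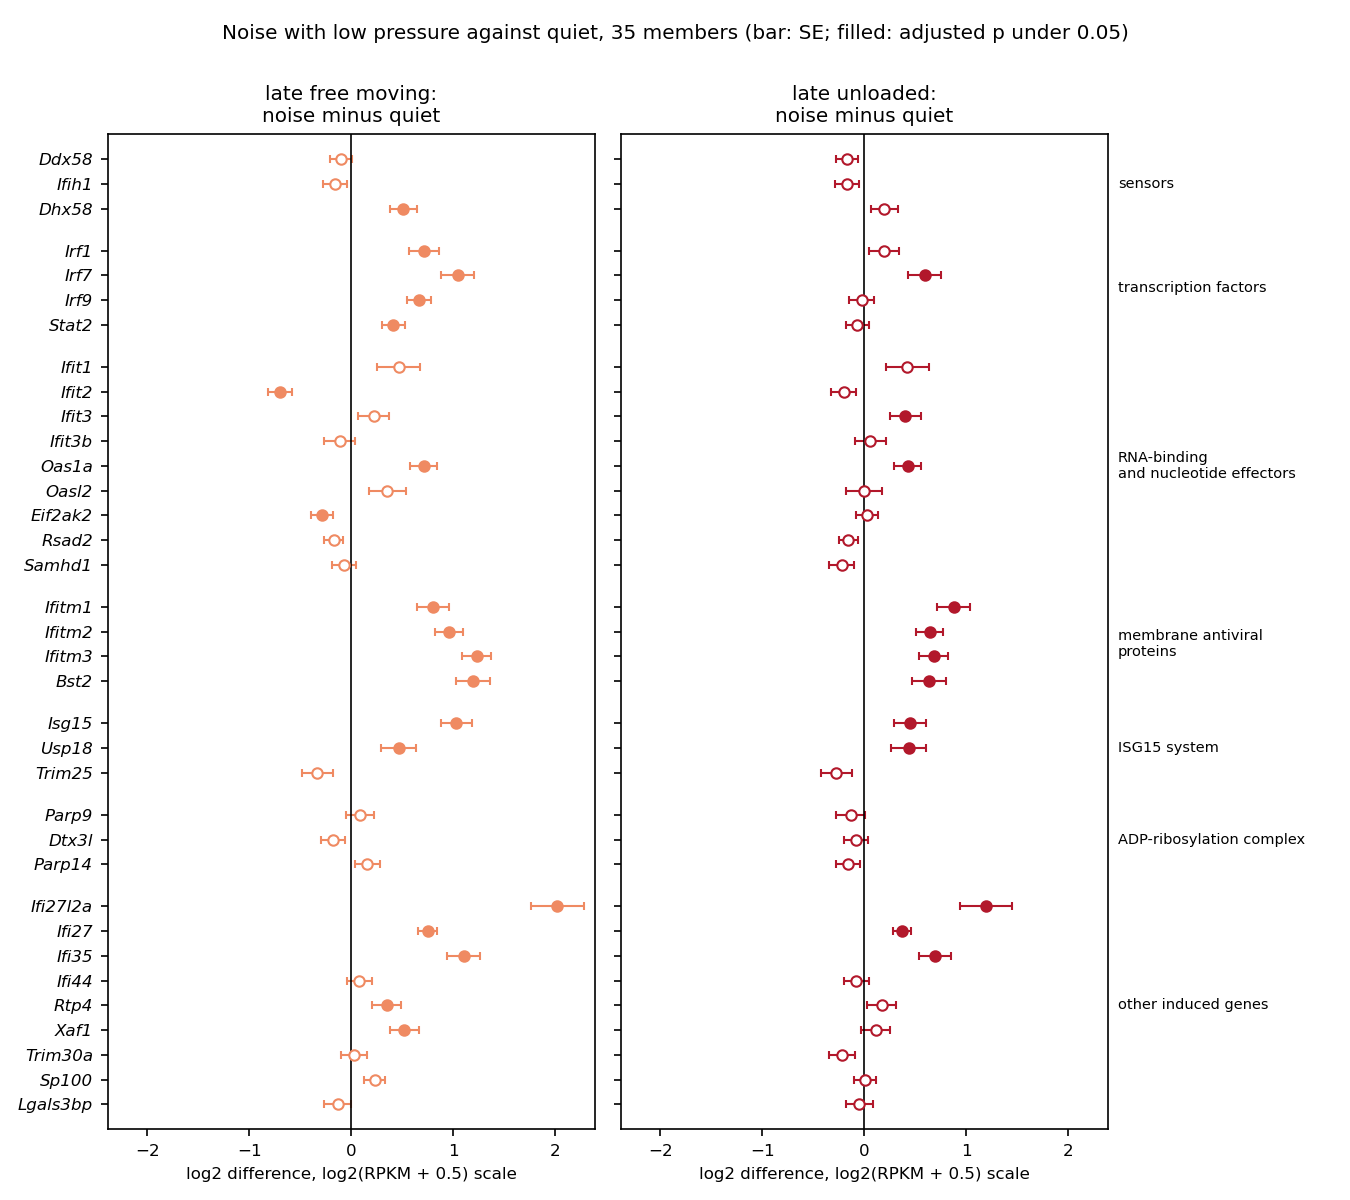
Log2 difference of each member, grouped by role, between noise and quiet in late free-moving mice (left, 17 higher and 2 lower) and in late unloaded mice (right, 12 higher and 0 lower). Points are limma estimates, bars their standard errors, and filled points passed an adjusted p of 0.05; the membrane proteins are filled on both sides.

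Exon length moved with these differences. With noise in free-moving mice the median log2 difference over all genes was 0.48 for genes with under 1 kb of exon, 0.19 for 1 to 2 kb, −0.01 for 2 to 4 kb, −0.19 for 4 to 8 kb and −0.44 over 8 kb. The 10 members under 2000 bases had a median of 0.99 and 9 of them rose, while the 25 longer ones had a median of 0.08, with 8 higher and 2 lower. Against the all-gene median of its own length class, a member lay higher in 30 of 35 cases in free-moving mice and in 34 of 35 in unloaded mice. Between series with the same labels the count was 27 of 35 for early free-moving series b against a. It was 30 of 35 for early unloaded series b against a, so such counts also arise without a labelled difference. After a trend in exon length and GC content was removed from each library, an alternative chosen after seeing the data, 24 members were higher and 2 lower in free-moving mice, and 16 higher and 0 lower in unloaded mice. The all-gene shares were then 27.5% higher and 27.3% lower in free-moving mice, and 16.3% and 17.4% in unloaded mice. The short and longer members then had medians of 0.55 and 0.36 in free-moving mice. Ifitm2 kept 0.35 of its 0.95 and Isg15 0.52 of its 1.03, while Irf9 stood at 0.90 and Irf7 at 1.03 without the trend.

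**Figure D3:**
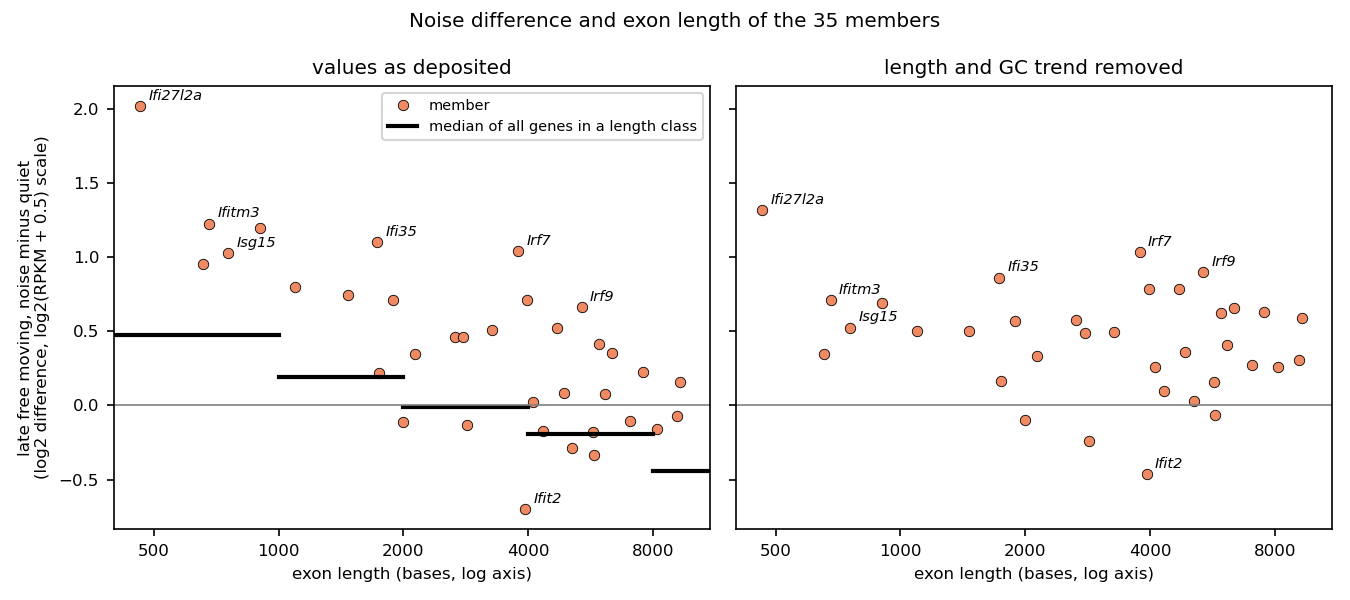
Log2 difference between noise and quiet in late free-moving mice against exon length (log axis) for the 35 members (points), with values as deposited (left) and after removal of a length and GC trend (right). Black lines on the left are the medians of all genes in 5 length classes, from 0.48 under 1 kb to −0.44 over 8 kb; the shortest members lie highest on the left and less so on the right.

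Promoter matches did not divide the members in free-moving mice, where 6 of 14 members with a match and 6 of 14 without were higher with noise. In unloaded mice the counts were 6 of 14 and 3 of 14. The difference between these shares was not tested.

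Markers of other cell types moved in the same comparison. In free-moving mice 18.5% of all genes were higher with noise and 31.6% lower, and the marker counts stand beside these shares. Of the blood cell markers 5 of 7 rose and 0 fell. Their summed level was 1133 to 2304 RPKM (median 1757) with noise and 628 to 1038 RPKM (median 777) in quiet, and S100a9 was at 0 in some of the 48 libraries. Of the ependymal and tanycyte markers 6 of 8 rose. Of the endothelial markers 4 of 10 rose and 2 fell, and of the microglial markers 4 of 12 rose and 5 fell. The summed microglial level was 260 to 283 RPKM with noise and 222 to 277 RPKM in quiet, and the endothelial one 172 to 203 RPKM and 126 to 161 RPKM, with 0 of either list's markers at 0 in any library. The summed border macrophage level was 3.82 to 7.22 RPKM (median 5.72) with noise and 2.43 to 4.58 RPKM (median 3.78) in quiet. The summed lymphocyte level was 1.18 to 2.96 RPKM (median 2.36) with noise and 0.736 to 1.45 RPKM (median 0.956) in quiet. Some lymphocyte markers were at 0 in some libraries. Of 8 neuronal markers 0 rose and 6 fell. In unloaded mice 2 of 7 blood cell markers rose and 0 fell (all genes 5.71% and 38.0%). Their summed level there was 1248 to 3458 RPKM with noise and 807 to 2634 RPKM in quiet. In these mice the border macrophage level was 4.16 to 9.22 RPKM (median 6.93) with noise and 3.06 to 4.60 RPKM (median 3.39) in quiet. The lymphocyte level was 1.21 to 2.94 RPKM (median 1.84) with noise and 0.684 to 2.35 RPKM (median 1.36) in quiet. The part of these cell types in the result was not tested.

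Other genes of the pathway, from lists written by name, moved in part. With noise in free-moving mice 13 of 38 tested further type I interferon targets rose and 3 fell. Over all genes 18.5% were higher and 31.6% lower. Mov10, an RNA helicase, averaged 7.22 ± 1.51 RPKM with noise and 2.93 ± 0.494 RPKM in quiet (log2 1.16, adjusted p = 7.1e-10). Psme2, a proteasome activator subunit, differed by 0.87, and Trim12a by 0.80. The 3 that fell were Cmpk2 (−0.88), Parp11 (−0.45) and Trim34a (−0.34). With the mitochondrial covariate 10 further targets were higher and 0 lower (all genes 31.9% and 9.78%). With the length and GC trend removed 24 were higher and 1, Cmpk2 (−0.63), lower (all genes 27.5% and 27.3%). Of the 16 genes of MHC class I antigen presentation 13 rose and 1, Erap1 (−0.54), fell, with a median of 0.52. Psmb8, an immunoproteasome subunit, averaged 4.68 ± 1.29 RPKM with noise and 1.58 ± 0.193 RPKM in quiet (log2 1.28 ± 0.20, adjusted p = 1.7e-06). Psmb10 differed by 0.95 and B2m, the light chain of MHC class I, by 0.65. Of the 16 interferon gamma GTPases 5 rose and 0 fell, and these were Gbp3 (0.45), Tgtp2 (0.54), Tgtp1 (0.43), Gbp4 (0.45) and Ifi47 (0.39).

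The upstream genes were divided in direction, where 18.5% of all genes were higher and 31.6% lower with noise in free-moving mice. Of 13 listed interferon ligands and receptors 7 were measured, 0 rose, and Ifngr2 (−0.71), a chain of the gamma receptor, fell. Among 14 signalling genes and inhibitors Tyk2 (0.76) and Ptpn6 (0.41) rose, and 6 fell, Jak1 (−0.91) and Pias1 (−0.86) among them. Of 18 tested genes of nucleic acid sensing 4 rose, namely Irf3 (0.76), which switches on the interferon genes, Ikbke (0.58), Myd88 (0.39) and Unc93b1 (0.32). In the same list 8 fell, and Tbk1 (−0.93), a kinase that activates Irf3, had the smallest p of these. The genes named only to complete a count of 5 or fewer in these lists were chosen after their values were seen. With the mitochondrial covariate the signalling list had 3 higher and 2 lower, and the sensing list 4 higher and 3 lower, while of the ligands and receptors 2 were higher and 0 lower. The gamma GTPases then had 3 higher and 0 lower, where 31.9% of all genes were higher and 9.78% lower. With the length and GC trend removed these GTPases had 12 higher and 0 lower (all genes 27.5% and 27.3%). In unloaded mice 5.71% of all genes were higher with noise and 38.0% lower, and the list counts there stand beside these shares. Ifnar1 (−0.39) and Ifngr2 (−0.45) fell among the 7 ligands and receptors. Of the signalling genes Ptpn6 (0.36) rose and 8 fell, and of the sensing genes Irf3 (0.24) rose and 6 fell, Tbk1 (−0.59) among them. There 9 of 38 further targets rose, and Cmpk2 (−0.75), Herc6 (−0.38) and Parp11 (−0.54) fell. For MHC class I Psmb8 (0.53), Psmb9 (0.60), Psmb10 (0.45) and B2m (0.26) rose and Tapbpl (−0.45) fell. Of the gamma GTPases 0 rose there, and Gbp4 (−0.42), Gbp5 (−0.36), Gbp7 (−0.30) and Gvin1 (−0.24) fell. With the length and GC trend removed 6 gamma GTPases were higher and 0 lower (all genes 16.3% and 17.4%). With the mitochondrial covariate 0 genes passed in any of these lists, and 0 of all 16487 genes did.

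To set the late against the early period in quiet, free-moving mice, the late free-moving quiet series was compared with the mean of early free-moving series a and b. This comparison uses the same quiet libraries as the noise comparison in free-moving mice, so its values stand beside those above and add no independent evidence. Of the 35 members 10 were higher and 15 lower in the late series, where 53.9% of all genes were higher and 16.2% lower. The median was −0.00 over the members and 0.30 over all genes. In 7 members every late library lay below every early one, and in 2 above, against 5.62% and 25.4% of all genes.

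The 4 membrane proteins all fell. Ifitm3 averaged 21.4 ± 2.13 RPKM in the late series and 52.3 ± 11.4 RPKM in the early ones (log2 −1.24 ± 0.12, adjusted p = 4.6e-11, no overlap), and Bst2 6.14 ± 1.01 and 14.8 ± 3.61 RPKM (log2 −1.18, adjusted p = 4.4e-09, no overlap). Ifi27l2a averaged 3.76 ± 1.60 RPKM late and 15.1 ± 6.82 RPKM early, 3.62-fold lower (adjusted p = 2.3e-09, no overlap). Ifi27 (−0.67), Ifitm1 (−1.16), Ifitm2 (−0.90), Irf7 (−0.97) and Ifi35 (−0.91) fell by these log2 differences. Ifit2 rose, at 3.57 ± 0.564 RPKM late and 1.60 ± 0.468 RPKM early (log2 0.97 ± 0.10, adjusted p = 2.0e-10), and no late library overlapped the early ones. Eif2ak2 rose by 0.56 (adjusted p = 1.4e-06), and stood at −0.02 once the length and GC trend was removed.

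The split between members again followed length. The 10 members under 2000 bases counted 0 higher and 9 lower, and the 25 longer ones 10 higher and 6 lower. All genes split by length too. Their median log2 difference was −0.45 under 1 kb of exon, −0.11 for 1 to 2 kb and 0.15 for 2 to 4 kb. It was 0.48 for 4 to 8 kb and 0.83 over 8 kb. Calls over all genes were not counted by length. After quantile normalization the members counted 5 higher and 22 lower (all genes 36.5% and 32.7%), with the length and GC trend removed 2 higher and 26 lower (35.5% and 35.7%), and with the mitochondrial covariate 3 higher and 11 lower (13.7% and 24.3%). The same covariate left Ifitm3 at −0.72 (adjusted p = 0.00024) and Ifi27l2a at −1.20 (adjusted p = 0.0024). Of the blood cell markers 0 rose and 6 of 7 fell here (all genes 53.9% and 16.2%), and their part was not tested.

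In unloaded mice the late unloaded quiet series was compared with the mean of early unloaded series a and b. Of the members 3 rose and 7 fell, where 33.1% of all genes were higher and 7.13% lower, and the groups overlapped in all 35. Of all genes 3.23% lay wholly above and 0.746% wholly below. Ifitm2 averaged 21.4 ± 2.69 RPKM late and 30.8 ± 6.40 RPKM early (log2 −0.50 ± 0.12, adjusted p = 0.0019). Ifitm1 differed by −0.57, Ifi35 by −0.50, Bst2 by −0.47, Ifi27l2a by −0.68, Ifitm3 by −0.37 and Ifi27 by −0.22, with adjusted p between 0.0023 and 0.022. Ifit2 (0.30), Trim30a (0.31) and Ifih1 (0.27) rose, with adjusted p of 0.023, 0.027 and 0.031. Over all genes 6640 were called. The count was 6 members and 4520 genes without title number 1, 2 members and 2238 genes with the mitochondrial covariate, and 2 members and 5547 genes with the length and GC trend removed. After quantile normalization 0 members were higher and 10 lower (all genes 20.5% and 18.2%).

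Hind limb unloading was asked about in 3 settings. In the late period in quiet, the late unloaded quiet series was compared with the late free-moving quiet series, whose libraries also enter the comparisons above. Of the 35 members 5 rose and 2 fell, where 7.65% of all genes were higher and 3.08% lower. The medians were 0.18 over the members and 0.02 over all genes. In 3 members every unloaded library lay above every free-moving one and in 1 below, against 9.76% and 11.1% of all genes.

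Ifitm3 had 30.2, 32.2 and 40.7 RPKM as its lowest, median and highest unloaded values, against 18.5, 21.9 and 24.4 RPKM in free-moving mice. The groups did not overlap (log2 0.65 ± 0.14, adjusted p = 0.0025). Isg15 averaged 5.13 ± 0.888 RPKM in unloaded and 3.35 ± 0.494 RPKM in free-moving mice (log2 0.54 ± 0.15, adjusted p = 0.018), and Ifi27 33.5 ± 2.33 and 27.1 ± 1.87 RPKM (log2 0.30 ± 0.09, adjusted p = 0.023), both without overlap. Irf7 differed by 0.59 (adjusted p = 0.012) and Ifitm2 by 0.41 (adjusted p = 0.041), with overlap. Ifit2 had 2.01, 2.24 and 2.51 RPKM as its lowest, median and highest unloaded values, against 2.83, 3.67 and 4.40 RPKM in free-moving mice. It was the member that fell with no overlap (log2 −0.55 ± 0.12, adjusted p = 0.0024). Eif2ak2 fell by 0.36 on the log2 scale (adjusted p = 0.025).

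Ifitm3 and Ifit2 passed in every alternative and without each title number. Over all 16487 genes 1768 were called. The count was 3 members and 671 genes without title number 13, and 4 members and 854 genes without number 17. With the mitochondrial covariate it was 9 members and 4002 genes. With the length and GC trend removed it was 4 members and 2342 of 16270 genes, and Isg15 then stood at 0.29 and Ifitm2 at 0.12. After quantile normalization 4 members were higher and 2 lower (all genes 11.1% and 11.9%). Of the endothelial markers 4 of 10 rose here and 0 fell (all genes 7.65% and 3.08%). Their summed level was 165 to 209 RPKM in unloaded and 126 to 161 RPKM in free-moving mice, and its part in the result was not tested.

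With noise in the late period, unloaded against free-moving mice, 0 members passed, and 2 had an unadjusted p below 0.05. Over all genes 0.0182% were higher and 0.0% lower. The smallest adjusted p values were those of Irf9 at 6.11 ± 1.33 RPKM in unloaded and 7.73 ± 0.643 RPKM in free-moving mice (log2 −0.34, adjusted p = 0.66), Ifitm1 (0.37, adjusted p = 0.75) and Parp9 (−0.24, adjusted p = 0.78). In quiet in the early period 2 members rose and 3 fell, where 41.4% of all genes were higher and 1.6% lower. All 35 overlapped, and 0.0% of all genes lay wholly above or below. The medians were −0.01 over the members and 0.19 over all genes.

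The early calls were Oas1a at 0.672 ± 0.176 RPKM in unloaded and 0.922 ± 0.311 RPKM in free-moving mice (log2 −0.26, adjusted p = 0.024), Ifi27l2a at 10.2 ± 3.40 and 15.1 ± 6.82 RPKM (log2 −0.49, adjusted p = 0.030) and Ifitm1 at 9.55 ± 3.17 and 11.7 ± 3.51 RPKM (log2 −0.29, adjusted p = 0.038). Trim25 (0.30, adjusted p = 0.024) and Rsad2 (0.16, adjusted p = 0.043) rose. These calls rest on few libraries and on the choice of series. Over all genes 7087 were called. Without title number 9 the count was 0 members and 24 genes, without number 17 it was 0 members and 0 genes, and without number 13 it was 3 members and 3329 genes. Unloaded series b gave 0 members and 0 genes against free-moving series a, and 0 members and 3 genes against series b. Unloaded series a gave 2 members and 5528 genes against series a, and 17 members and 8388 genes against series b. The signs of Oas1a (0.033), Ifi27l2a (0.40) and Ifitm1 (0.022) turned when unloaded series b was set against series a of the free-moving mice. With the mitochondrial covariate the count was 0 members and 1 gene, and after quantile normalization it was 0 higher and 12 lower (all genes 8.48% and 7.08%).

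**Figure D4:**
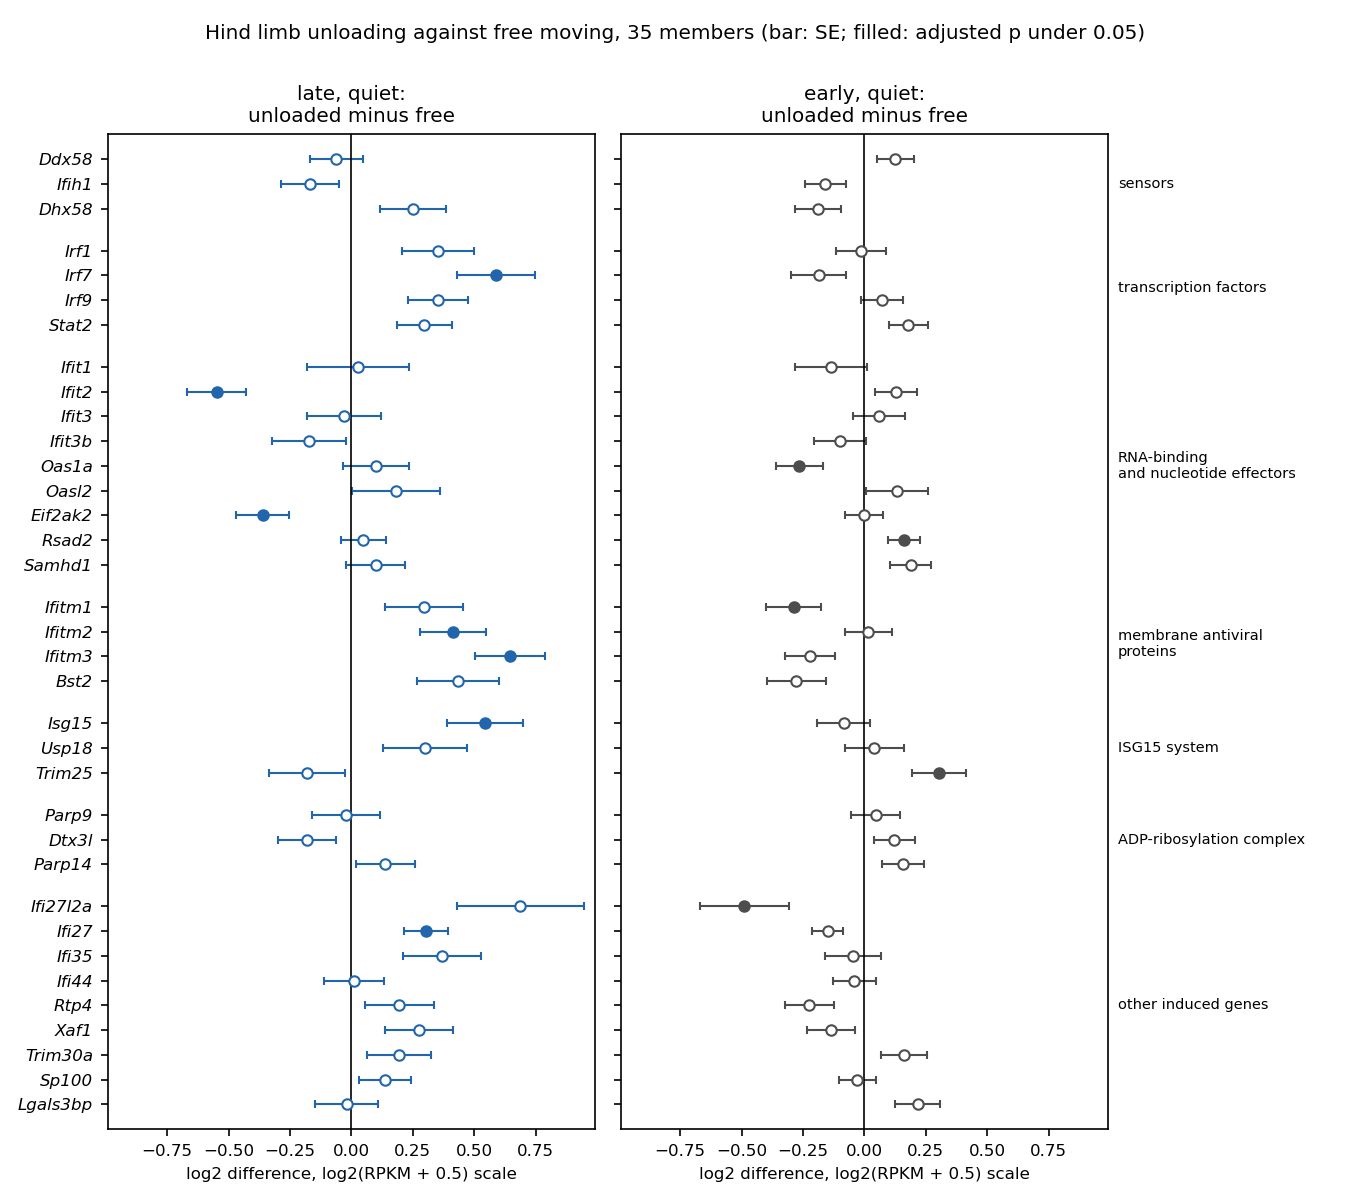
Log2 difference of each member, grouped by role, between unloaded and free-moving mice in quiet, in the late period (left, 5 higher and 2 lower) and the early period (right, 2 higher and 3 lower). Points are limma estimates, bars their standard errors, and filled points passed an adjusted p of 0.05; Ifitm3 lies to the right of 0 late (0.65) and to the left of 0 early.

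The difference between the settings was tested itself. Each such interaction uses the late free-moving quiet libraries of the comparisons above again. Between the late and early periods the unloading difference of 8 members was more positive late and that of 2 more negative, where 6.29% and 20.3% of all genes were. Ifitm3 had an interaction of 0.87 ± 0.17 (adjusted p = 0.0011), Ifi27l2a of 1.18 ± 0.32 (adjusted p = 0.0082), Irf7 of 0.78 ± 0.19 (adjusted p = 0.0055) and Ifi27 of 0.45 ± 0.11 (adjusted p = 0.0045). Bst2, Isg15, Ifitm1 and Dhx58 followed with 0.71, 0.63, 0.58 and 0.44. Ifit2 had −0.68 ± 0.15 (adjusted p = 0.0021) and Eif2ak2 −0.36. The count was 6 members and 1974 genes without title number 13, and 5 members and 1619 genes without number 17. After quantile normalization 15 members were more positive and 1 more negative (all genes 15.7% and 17.5%). With the mitochondrial covariate the count was 4 members and 1669 of all 16487 genes, against 10 members and 4387 genes without it. Among these 4 were Ifitm3 (0.57, adjusted p = 0.018), Ifit2 (−0.57, adjusted p = 0.016) and Ifi27 (0.39, adjusted p = 0.024).

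Between noise and quiet the unloading difference was called for Irf9 alone among the members (interaction −0.69 ± 0.17, adjusted p = 0.017), where 3.76% of all genes were called. Irf9 averaged 6.11 ± 1.33 RPKM in unloaded and 7.73 ± 0.643 RPKM in free-moving mice with noise, and 6.14 ± 0.673 RPKM in unloaded and 4.77 ± 1.10 RPKM in free-moving mice in quiet. The call was lost without title number 9, 13 or 17 (adjusted p 0.065, 0.18 and 0.078). Stat2 (−0.48, adjusted p = 0.073) and Ifi27 (−0.38, adjusted p = 0.082) did not pass.

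Series that share all labels give a scale for these differences. Early free-moving series b against a called 0 members with limma, where 9 had an unadjusted p below 0.05 and 0.115% of all genes were called. Early unloaded series b against a called 0 members, where 4 had an unadjusted p below 0.05 and 0.224% of all genes were called. That last count depends on title number 1, without which 4 members (2 higher and 2 lower) and 5071 of the 16487 genes were called. After quantile normalization 3 members and 1221 genes were called in the unloaded pair, and 2 members and 628 genes in the free-moving pair. Ifi27l2a had the smallest adjusted p in both: it averaged 20.2 ± 5.34 RPKM in free-moving series b and 9.99 ± 3.27 RPKM in series a (log2 1.00 ± 0.26, adjusted p = 0.069), and 12.9 ± 1.88 and 7.48 ± 2.11 RPKM in unloaded series b and a (log2 0.77, adjusted p = 0.099). It was higher in b in 6 of 6 title numbers each time. Leaving out title number 9 or 17 took the free-moving difference past the threshold (adjusted p 0.046 and 0.023), and leaving out number 1 the unloaded one (0.026).

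Over the 6 title numbers, with the series as a term, 2 members passed the limma F test, as did 0.71% of all genes. Ifitm1 (F = 6.75, adjusted p = 0.027) lay above the mean of its own series at number 1 in 8 of 8 series and at number 13 in 0 of 8. Its mean difference from the series mean was 0.46 ± 0.30 at number 1 and −0.30 ± 0.22 at number 13 on the log2 scale (SD over 8 series). Ifit3, whose human counterpart works in a complex with IFIT1, had F = 5.91 (adjusted p = 0.049). It lay above its series mean at number 1 in 7 of 8 and at number 21 in 8 of 8 series, by 0.30 ± 0.20 and 0.22 ± 0.16, and at number 13 in 0 of 8 (−0.29 ± 0.31). Irf9 came next and did not pass (F = 5.73, adjusted p = 0.052), at 0.23 ± 0.08 at number 1 and −0.22 ± 0.29 at number 17. Without title number 1 the adjusted p was 0.29 for Ifitm1 and 0.17 for Ifit3. The count was 0 without number 1, 13 or 21, and 1 without number 5 or 9.

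**Figure D5:**
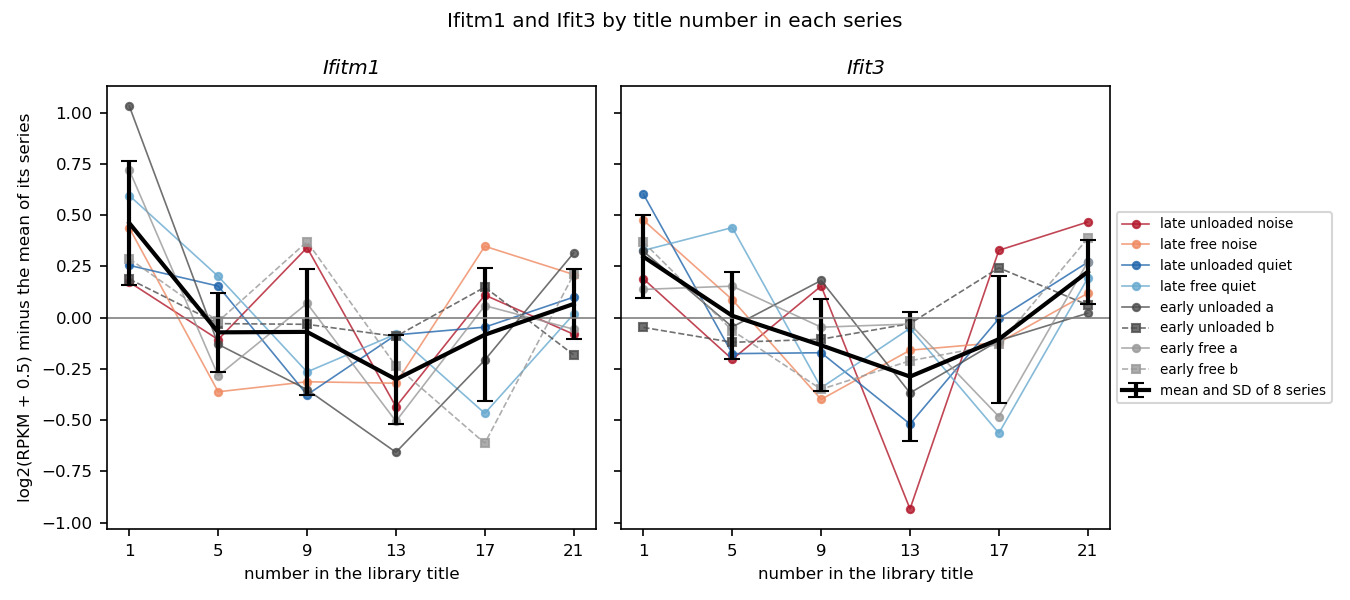
log2(RPKM + 0.5) of Ifitm1 (left) and Ifit3 (right) less the mean of the library's own series, by the number in the library title, for the 8 series (thin lines, dashed for series b) with their mean and SD (black). Both genes are highest at number 1 (0.46 and 0.30) and lowest at number 13 (−0.30 and −0.29).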

How the data were processed

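The authors deposited RPKM values for 21558 genes in 48 columns, 1 per library. CASAVA 1.8 and HISAT are named for the upstream steps, per the submitters' processing notes, while the sources used here do not give the genome build, annotation or counting rule. Samples were grouped by their labels, and 0 columns had no sample. Read totals were recovered from the steps between low RPKM values, with exon lengths from GENCODE M21 (GRCm38, matched by symbol for 21164 genes); 63.4% to 69.2% of low values were whole within 0.02 reads, against 4% by chance. These totals are estimates. Sequences are from RefSeq (GRCm38.p6).

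Differences were fitted with limma 3.58.1 in R 4.3.3 on log2(RPKM + 0.5), with an intensity trend, for the 16487 genes above 0 in at least 24 columns. All 48 libraries entered 1 fit with terms for series and title number (35 residual degrees of freedom). P-values are two-sided and adjusted by Benjamini-Hochberg over all genes tested, and a call is an adjusted p below 0.05. Fold changes are on the log2(RPKM + 0.5) scale and understate those of low genes. Tested on simulated data for late unloading in quiet (16487 genes), the fit recovered 98% of changes of 1 and 99% of changes of 2 log2 units, with 8 false among 205 calls. The simulated noise was independent between genes and libraries, and changes were put only into genes with a mean log2(RPKM + 0.5) above 1. It held no shift shared by many genes, so these rates need not hold for the real data or for low members.

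Alternatives were a pseudocount of 0.1, a mean RPKM of at least 0.5, no filter, quantile normalization, the mitochondrial share of RPKM (log2 odds) as a covariate, no term for title number, only the series compared, each title number left out, each pair of early series, and a 24-unit sine and cosine in the title number. Removal of a length and GC trend was chosen after seeing the data. The members and lists were chosen with earlier results of these data known. Named members are, per comparison, up to 10 called members by smallest p, or the 3 with the smallest p where fewer than 3 passed, and per pathway list up to 3 called genes. Some listed genes are not reported here.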

Additional observations from a re-analysis of the deposited data

Results flagged for a closer look

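Within a series of 6 libraries, 21 values of 280 combinations of member and series stood apart from the other 5, by a gap above Dixon's 95% critical value, and chance alone gives about 1 in 20. Early unloaded series a number 1 held 4 of them, with Irf7 at 4.23 RPKM, Ifitm2 at 43.3 RPKM and Bst2 at 17.1 RPKM high and Samhd1 at 2.71 RPKM low. The mitochondrial share of that library was 48.2%, against 11.2% to 18.5% in the rest of its series, and its part was not tested. In the same series Dtx3l stood high at number 9, at 1.15 RPKM. Early free-moving series a number 1 was high for Ifit1 (3.44 RPKM), Ifitm1 (16.6 RPKM) and Ifi35 (5.82 RPKM). In early free-moving series b Ifit1 was high at number 21 (2.59 RPKM) and Trim25 at number 13 (1.98 RPKM).

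In the late unloaded noise series Ifi27l2a was high at number 17 (31.7 RPKM, the next at 14.3 RPKM), while Irf1 was low at number 5 (2.53 RPKM) and Dtx3l at number 13 (0.366 RPKM). In the late free-moving noise series Ifit1 was high at number 13 (2.76 RPKM) and Eif2ak2 at number 5 (1.38 RPKM), and Parp9 was low at number 9 (0.690 RPKM) and Parp14 at number 13 (0.522 RPKM). Irf1 was high at number 1 in the late unloaded quiet series (3.70 RPKM) and in the late free-moving quiet series (2.98 RPKM). At number 5 of the late free-moving quiet series Ifit1 (2.30 RPKM) and Usp18 (1.12 RPKM) were high.

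The unloading difference itself differed between settings, by limma's interaction test, for 11 members. Between noise and quiet it did for Irf9 (−0.69). Between the late and early periods it did for Ifi27l2a (1.18), Ifitm3 (0.87), Irf7 (0.78), Bst2 (0.71), Isg15 (0.63), Ifitm1 (0.58), Ifi27 (0.45), Dhx58 (0.44), Eif2ak2 (−0.36) and Ifit2 (−0.68). The call of Irf9 was lost without title number 9, 13 or 17, and that of Dhx58 without any 1 of the 6 numbers.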

How the results depend on the processing

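The 12 counts of called members moved with the processing as follows. For early unloading (5 members) the count was 12 after quantile normalization, 0 with the mitochondrial share as a covariate, 2 with only the series compared, 2, 17, 0 and 0 in the pairs a against a, a against b, b against a and b against b (unloaded first), and 9 with the length and GC trend removed. It was 0 to 7 without 1 title number. In the pair of unloaded series b and free-moving series a the signs of Oas1a (0.033), Ifi27l2a (0.40) and Ifitm1 (0.022) turned. With the trend removed those of Rsad2 in early unloading (−0.023), Eif2ak2 late against early in free-moving mice (−0.022) and Ifih1 late against early in unloaded mice (−0.10) turned, and the cause was not tested. Late unloading in quiet (7) gave 15 with only the series compared, 4 with the trend removed and 3 to 6 without 1 title number. Noise in unloaded mice (12) gave 0 with the covariate and 3 to 13 without 1 title number. Late against early gave 14 with the covariate in free-moving mice (25), and in unloaded mice (10) 2 with the covariate, 2 with the trend removed and 6 to 10 without 1 title number. The interaction of unloading with noise (1) gave 2 after quantile normalization, 5 with the covariate, 3 with only the series compared, 2 with the trend removed and 0 to 2 without 1 title number, and that with period (10) gave 16 after quantile normalization, 4 with the covariate and 5 to 9 without 1 title number. Series b against a (0 and 0) gave 2 and 3 after quantile normalization, 5 with the covariate in free-moving mice, 2 with the trend removed in unloaded mice, and 0 to 3 and 0 to 4 without 1 title number. The title number test (2) gave 1 with a pseudocount of 0.1, 1 without the filter, 1 after quantile normalization and 0 to 2 without 1 title number. The counts for noise in free-moving mice (17 to 26) and for late unloading with noise (0) stayed within 1.5 times of the count given in the report in every alternative run. Over all genes the calls moved too. Early unloading (7087 genes) gave 2565 after quantile normalization, 1 with the covariate and 3636 with the trend removed, late unloading in quiet (1768) gave 3786 and 4002 in the first 2 of these, and noise in unloaded mice (7202) gave 0 with the covariate. With the covariate late against early gave 6260 in free-moving mice (11552) and 2238 in unloaded mice (6640), and the interactions gave 2476 with noise (620, and 971 after quantile normalization) and 1669 with period (4387). With only the series compared early unloading gave 3768, late unloading in quiet 7100 and the interaction with noise 1489. The cause of the moved counts was not tested.

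The labels do not say that a title number marks a shared animal, batch or day. Same-numbered libraries did not all deviate together (lowest correlation −0.505). The numbers were therefore not read as marks of shared animals or batches. They still entered the main fit as a term, so each comparison of series was adjusted for title number. Same-numbered libraries leaned towards deviating together in part, as a hint from the data. The median correlation of deviations was 0.068 over 168 pairs of 1 number and −0.010 over other pairs, and 15 of 48 libraries correlated best with a library of their own number. Without the replicate block (no term for the number) the counts were 4, 7, 0, 19, 11, 24, 10, 0, 9, 0 and 0 for the 11 comparisons of series, in the order early unloading, late unloading in quiet, late unloading with noise, noise in free-moving and in unloaded mice, late against early in free-moving and in unloaded mice, the interactions with noise and with period, and series b against a free moving and unloaded. Among the named members the calls that ended were those of Ifitm1 and Rsad2 in early unloading, of Irf9 in the interaction with noise and of Ifitm1 in that with period. Depth limits the low members: Ifi44 is listed at 0 in 1 library, and Rsad2 had at least 13 reads in each.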
